A study of Mus musculus with 4 samples.

Results

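A set of 9 genes of the regulatory T (Treg) cell programme was followed in human T cells from humanised mice: FOXP3, IL2RA, CTLA4, IKZF2, IKZF4, PTGIR, FANK1, ADAM12 and ETV7. They were taken by name, 9 of the 33538 human genes in the deposited matrices, and all 9 were detected. They were read in barcodes with over 50% of their unique molecular identifiers (UMIs) on human genes and at least 1 UMI of the T cell receptor genes CD3D, CD3E and CD3G, which left 14109 T cells of 18106 human barcodes and 22830 barcodes in all. Every gene below is given as the human row of a combined human and mouse reference. The identifiers in the files were ENSG00000049768 for FOXP3, ENSG00000134460 for IL2RA, ENSG00000163599 for CTLA4, ENSG00000030419 for IKZF2, ENSG00000123411 for IKZF4, ENSG00000160013 for PTGIR, ENSG00000203780 for FANK1, ENSG00000148848 for ADAM12 and ENSG00000010030 for ETV7.

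Treg cells are a CD4 T cell lineage that restrains other lymphocytes, and the transcription factor FOXP3 holds their programme in place. They carry a high level of IL2RA (CD25), the chain that gives the interleukin-2 receptor its high affinity, and of CTLA4, an inhibitory receptor that competes with CD28 for the ligands CD80 and CD86. IKZF2 (Helios) and IKZF4 (Eos) are Ikaros family factors known from Treg cells, while human conventional T cells can also express FOXP3 and CTLA4 after activation.

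The data were 4 libraries of droplet-based 3' scRNAseq, 1 per condition: blood of naïve mice, blood of sham mice (T9 laminectomy), blood of mice with a contusive T9 spinal cord injury (SCI), and the SCI cord (segments T8-T10). All hosts were huNSG-SGM3 mice, on the NOD.Cg-Prkdcscid background with the IL2rgtm1Wjl allele and the transgene Tg(CMV-IL3,CSF2,KITLG)1Eav/MloySzJ, labelled as 15 weeks of age. They had been irradiated and engrafted with human cord blood CD34+ cells, their CMV promoter drives human IL3, CSF2 and KITLG, and they lack mouse T, B and NK cells. Sham and SCI samples were taken at 7 days. Cells were sorted as live huCD45+, and the cord was in addition digested with papain and enriched on magnetic beads. Naïve and sham hosts were male and SCI hosts were of both sexes, so that host sex and injury cannot be told apart in blood, nor can tissue, digestion and enrichment between cord and blood.

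Naïve blood gave 4795 T cells, sham blood 4095, SCI blood 5137 and the SCI cord 82. Their median depth was 3611, 5178, 4637 and 8033.5 UMIs. With 1 library of pooled cells per condition there was no replicate between conditions, so values are compared between libraries without a test, and their 95% intervals cover counting error only. No more than 16 cell barcodes were shared by any pair of libraries, and 1 was shared by SCI blood and SCI cord. Levels are given as CPM, the UMIs of a gene scaled to a common total of human UMIs without ribosomal and mitochondrial genes. They were not scaled to transcript length, so levels were not ranked between genes.

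FOXP3, the lineage factor, had at least 1 UMI in 457 of 4795 T cells of naïve blood (9.53%, exact binomial interval 8.71% to 10.4%), 540 of 4095 of sham blood (13.2%), 275 of 5137 of SCI blood (5.35%) and 15 of 82 of SCI cord (18.3%). SCI blood was thus the lowest of the 4 libraries and the cord, with its few cells, the highest. After each cell was thinned to 1000 UMIs, the shares were 3.68%, 3.94%, 1.87% and 6.33%, and the order of the 3 blood libraries was kept, with naïve and sham close together. In B cells, which should lack FOXP3, the full-depth share was 0.0732% in naïve blood, 0.344% in sham blood and 0% in SCI blood, at median depths of 3716, 5693 and 4861 UMIs. After thinning it was 0 of 1355, 0 of 580 and 0 of 909 B cells, which allows shares of up to 0.221%, 0.517% and 0.33%. The T cell shares of all 3 blood libraries lay above these limits.

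Most FOXP3+ T cells of blood held a lone FOXP3 UMI, at 68.5%, 59.8% and 74.2% in the 3 libraries, and 46.7% of those of the cord did. A T cell with no FOXP3 UMI is called FOXP3- here, but at this depth it may still have expressed the gene. By the median, FOXP3+ cells of blood were the shallower class, at 3461, 4595 and 4328 UMIs against 3627, 5247 and 4648 in FOXP3- cells. By the sum they were not, since they held 10.3%, 15.1% and 6.5% of the UMIs that CPM counts in 9.53%, 13.2% and 5.35% of the cells. In the cord the median was 10615 against 7959 UMIs. Of the FOXP3+ cells of naïve, sham and SCI blood, 33.7%, 40.4% and 46.5% had a CD4 UMI and no CD8A or CD8B UMI (the CD4 gate), and 6.35%, 6.67% and 2.55% had a CD8A or CD8B UMI and no CD4 UMI (the CD8 gate). Among CD4-gated T cells 12.4%, 15.6% and 9.2% were FOXP3+, against 3.08%, 4.03% and 0.411% of CD8-gated T cells.

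Counts of the FOXP3+ and the FOXP3- T cells were summed in each blood library and compared with edgeR's quasi-likelihood test with library as a term, on 12979 genes without FOXP3, which had set the classes. All 8 other members were higher in FOXP3+ T cells, by at least 2-fold at an adjusted p under 0.05 in that edgeR test. Of all genes tested, 2.93% were called higher and 4.05% lower. The median log2 difference was 2.21 over the 8 members and -0.02 over all genes. The members were picked with earlier results of these cells in view, so this count is not independent evidence of their direction. The p-values rest on 3 libraries that also differ in condition, with no separate animals behind them.

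Of the receptors, IL2RA stood at 213, 219 and 173 CPM in the FOXP3+ T cells of naïve, sham and SCI blood, against 39.8, 35.3 and 18.9 CPM in FOXP3- T cells. CTLA4 stood at 159, 151 and 96.3 CPM in FOXP3+ cells, against 22.9, 25.1 and 10.7 CPM in FOXP3- cells. PTGIR, the receptor for prostacyclin, stood at 113, 115 and 141 CPM in FOXP3+ cells, against 34.8, 32.7 and 27.5 CPM in FOXP3- cells. The classes did not overlap for any of the 3 receptors, and the share of all genes that separate in this way was not counted. In edgeR the log2 difference was 2.77 (SE 0.11, adjusted p = 1.43e-12) for IL2RA, 2.85 (SE 0.10, adjusted p = 6.6e-13) for CTLA4 and 2.00 (SE 0.11, adjusted p = 1.11e-10) for PTGIR.

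**Figure D1:**
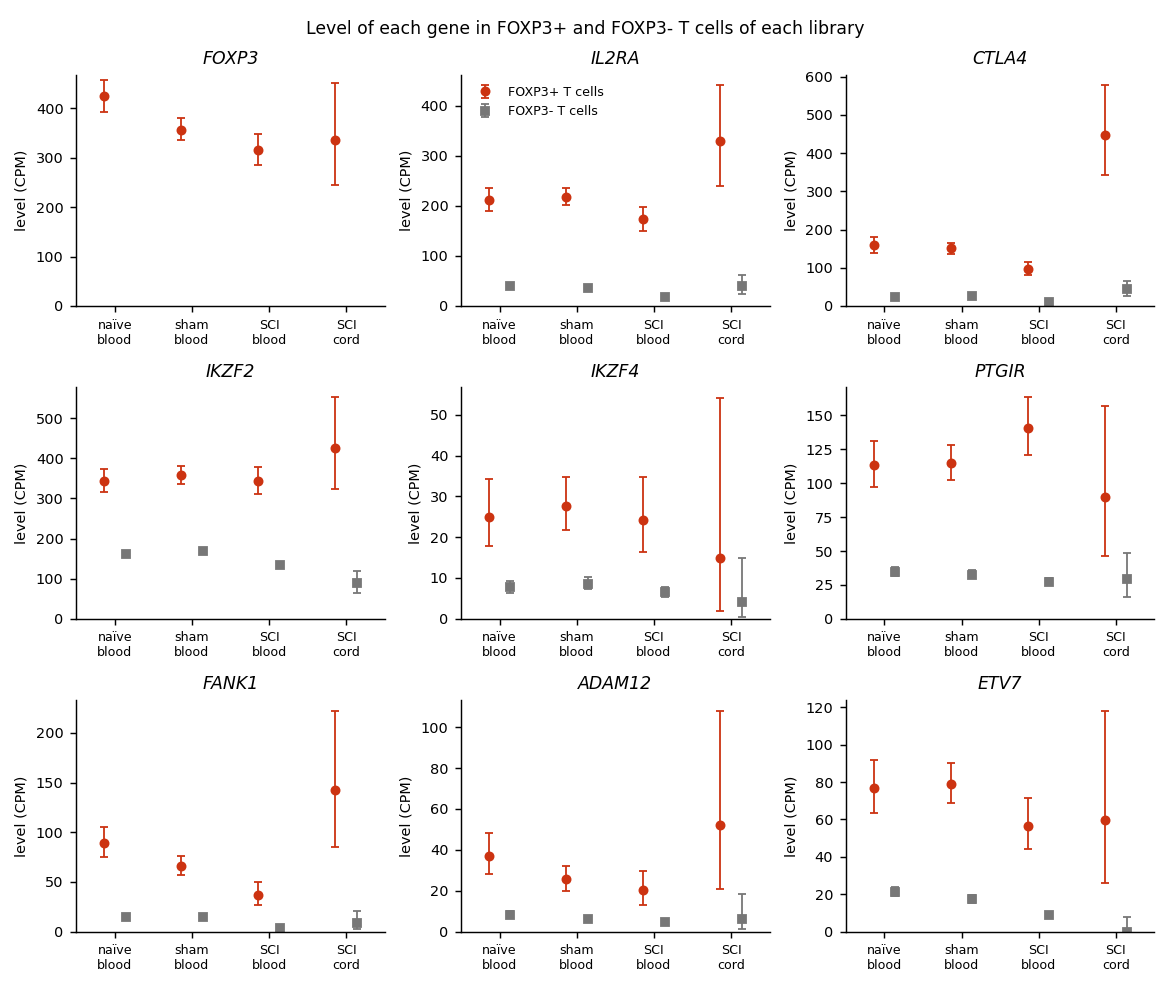
Level of each gene (CPM, linear axis from 0) in FOXP3+ T cells (red circles) and FOXP3- T cells (grey squares) of the 4 libraries, 1 point per library, with 95% Poisson intervals that cover counting error only. FOXP3 has no grey points because its absence defined that class. In blood every red point of the other 8 genes lies above the grey points, and the share of all genes that separate in this way was not counted.

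Of the transcription factors, IKZF2 stood at 343, 358 and 343 CPM in FOXP3+ T cells of naïve, sham and SCI blood, against 161, 170 and 134 CPM in FOXP3- T cells. IKZF4 stood at 25.0, 27.7 and 24.3 CPM, against 7.72, 8.64 and 6.46 CPM. ETV7, an ETS family factor, stood at 76.8, 78.8 and 56.6 CPM, against 21.2, 17.3 and 9.05 CPM. Of the 8 members, IKZF2 had the smallest difference between the classes (log2 1.23, SE 0.06, edgeR adjusted p = 9.59e-11). IKZF4 differed by 1.81 (SE 0.18, edgeR adjusted p = 3.48e-07) and ETV7 by 2.24 (SE 0.13, edgeR adjusted p = 5.68e-10) on the same scale.

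FANK1, which encodes a protein with fibronectin type III and ankyrin repeat domains, stood at 89.7, 66.0 and 37.2 CPM in FOXP3+ T cells of naïve, sham and SCI blood, against 15.2, 14.3 and 3.88 CPM in FOXP3- cells. ADAM12, a membrane metalloprotease of the ADAM family, stood at 37.1, 25.5 and 20.2 CPM against 8.31, 6.10 and 4.497 CPM. Both were lowest in SCI blood in each class. The log2 difference between classes was 2.59 for FANK1 (SE 0.16, edgeR adjusted p = 7.44e-10) and 2.18 for ADAM12 (SE 0.18, edgeR adjusted p = 3.68e-08). In a further fit all cells were thinned to 1000 UMIs and the classes were redrawn from the FOXP3 UMIs left. In naïve blood 175 of 4753 T cells were then FOXP3+. ADAM12 (1.63, adjusted p = 0.169) and IKZF4 (1.75, adjusted p = 0.126) no longer passed the edgeR threshold there, while the other 6 members did.

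**Figure D2:**
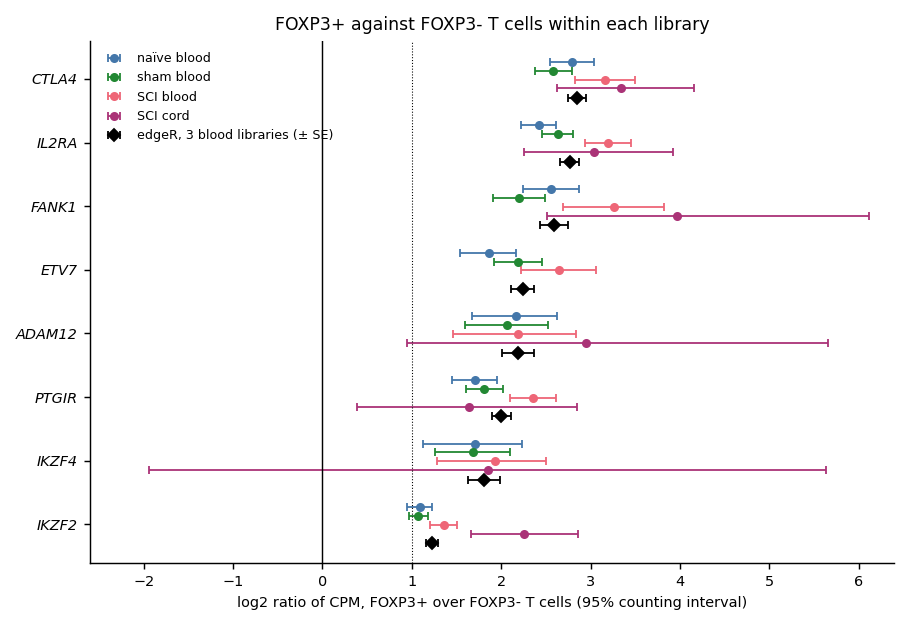
Log2 ratio of CPM in FOXP3+ over FOXP3- T cells within each library (coloured circles, 95% counting interval) for the 8 genes other than FOXP3, with the edgeR estimate over the 3 blood libraries (black diamonds, bar 1 SE). The dotted line marks 2-fold. ETV7 has no SCI cord point because its FOXP3- cells held no UMI, and every point drawn lies to the right of 0, the cord interval of IKZF4 reaching below it.

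Within CD4-gated T cells alone, a gate that rests on few UMIs per cell, the 8 members kept a log2 difference between 1.31 and 2.71, and all 8 passed the same threshold. At full depth FOXP3+ cells of the 3 blood libraries held a larger share of cycling cells, defined by at least 2 UMIs of MKI67 and TOP2A. The shares were 11.2%, 9.63% and 8.73% against 4.89%, 4.98% and 4.57% of FOXP3- cells. Cycling T cells of naïve blood were deeper, at a median of 8356 against 3549 UMIs in its other T cells. FOXP3 was found in 19.4% of these cycling and 8.96% of these other T cells at full depth. After thinning, the shares were 4.21% (interval 2.12% to 7.42%) and 3.65% (3.12% to 4.24%). The part of depth in the larger cycling share was not tested. In the cord 0 of 15 FOXP3+ cells (which allows up to 20%) and 8.96% of FOXP3- cells were cycling by the same count of MKI67 and TOP2A UMIs at full depth. With cycling cells left out, an alternative chosen after seeing the data, the 8 members differed by 1.30 to 2.73.

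Other genes linked to Treg cells were compared on a list chosen with earlier results of these data known. Its counts are thus not independent evidence of their direction. Over all genes tested, 2.93% were called higher and 4.05% lower. Of the 28 genes on the list, 25 were tested, 14 of which rose in FOXP3+ cells and none of which fell, with a median log2 difference of 1.31. The costimulatory receptors TNFRSF18 (GITR, 2.07, SE 0.06, edgeR adjusted p = 6.61e-14) and TNFRSF1B (2.19, SE 0.06), the hyaluronan receptor LAYN (3.98, SE 0.31), the guanylate-binding protein GBP5 (2.03, SE 0.07) and the checkpoint receptor TIGIT (1.70, SE 0.10) were among them. The chemokine receptors CCR4 (0.99) and CCR8 (0.42) and the cytokine TGFB1 (0.11) did not reach the call. LRRC32, NRP1 and IL10 had too few counts to test.

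On a list of 16 genes linked to conventional or effector T cells, 15 were tested, 9 fell in FOXP3+ cells and none rose, with a median of -1.37. The calls over all genes were 4.05% lower and 2.93% higher. This list was also chosen with earlier results of these data known. IL7R, the interleukin-7 receptor whose low level is used with CD25 to sort Treg cells, stood at 112, 143 and 155 CPM in FOXP3+ cells against 591, 769 and 924 CPM in FOXP3- cells of naïve, sham and SCI blood. CD40LG, a helper T cell ligand, fell from 79.2, 88.4 and 73.9 CPM in FOXP3- cells to 13.5, 13.1 and 16.2 CPM. The granzyme gene GZMK fell by 3.48 on the log2 scale (SE 0.07). CD8A fell by 1.71 (SE 0.16) and CD8B by 2.18 (SE 0.15), while CD4 was higher by 0.53 (SE 0.07) and short of the 2-fold threshold.

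Other genes of the interleukin-2 receptor pathway had smaller log2 differences than IL2RA, a gap that was not tested. Of 11 such genes, IL2RB, the beta chain, was the 1 called higher (1.18, SE 0.12, edgeR adjusted p = 9.0e-07), and the median was 0.24. Over all genes tested, 2.93% were called higher. By the adjusted p alone, without the 2-fold threshold, 5 of the 11 were higher and 0 lower. Among all 12979 genes tested, 1555 were higher and 1281 lower by that measure. The shared gamma chain IL2RG (0.32), the kinase JAK1 (0.19), the transcription factor STAT5B (0.00) and the feedback inhibitor SOCS1 (0.03) did not reach 2-fold.

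Among 19 relatives and partners of the members, 18 were tested, of which 1 rose and 3 fell. The calls over all genes were 2.93% higher and 4.05% lower. CD80, a ligand of CTLA4, rose (1.45, SE 0.28) from 5.44, 2.86 and 1.97 CPM in FOXP3- cells to 11.5, 8.39 and 6.47 CPM in FOXP3+ cells of naïve, sham and SCI blood. The 3 that fell were prostanoid receptors, the family of PTGIR. PTGER2, a receptor for prostaglandin E2, fell by 1.57 (SE 0.12), and PTGDR, a receptor for prostaglandin D2, and TBXA2R, the thromboxane receptor, also fell, with 0 CPM of PTGDR in FOXP3+ cells of naïve and sham blood. PTGER4, another receptor for prostaglandin E2, was not called (-0.63), and PTGDR2 had too few counts to test. The Ikaros genes IKZF1 (-0.23), IKZF3 (0.52) and IKZF5 (-0.25) were not called, in contrast to IKZF2 and IKZF4.

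Outside the lists, the 12 called genes with the highest log2 difference among those with at least 200 UMIs were LGMN, CD70, LINC01943, SLC16A10, TSHR, CEBPA, PRG4, SEMA3G, LINC01727, TNIP3, ANKRD6 and TRIB1. LGMN, which encodes the protease legumain, stood at 63.4, 74.1 and 52.6 CPM in FOXP3+ cells of naïve, sham and SCI blood against 15.3, 8.05 and 7.59 CPM in FOXP3- cells. CD70, the ligand of CD27, stood at 48.0, 53.7 and 36.4 CPM against 6.18, 7.86 and 9.50 CPM. The 8 lowest were PLXNA4, CD248, FGFBP2, TPSAB1, S100B, DHRS3, EOMES and CXCL13. EOMES, a factor of cytotoxic and memory T cells, stood at 1.28, 0 and 1.62 CPM in FOXP3+ cells against 30.4, 17.6 and 22.1 CPM, and PLXNA4 and CD248 had no UMI in any FOXP3+ cell of blood.

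Markers of other cells were also present in the T cell sums. Their calls stand beside 2.93% higher and 4.05% lower over all genes tested. The 6 basophil and mast cell markers were all called lower in FOXP3+ cells, although FCER1A in SCI blood stood at 8.90 CPM there and 7.08 CPM in FOXP3- cells, with summed levels of 26.3, 3.65 and 31.5 CPM against 54.1, 139 and 84.5 CPM in FOXP3- cells of naïve, sham and SCI blood. CLC was their most abundant gene in FOXP3- cells, and CPA3 and GATA2 were at 0 in FOXP3+ cells of naïve blood. The 7 monocyte markers summed to 1449, 571 and 16.2 CPM in FOXP3+ cells against 1083, 1127 and 177 CPM, led by S100A9, and no member of that list was called. In SCI blood 5 of the 7, CD14 among them, were at 0 in FOXP3+ cells. The 7 B cell markers summed to 351, 220 and 336 CPM against 437, 295 and 426 CPM, of which VPREB3 and TCL1A were called lower and none was at 0, with CD79B most abundant in FOXP3+ cells. With cells of 2 or more B cell gene UMIs left out, the 8 members differed by 1.23 to 2.83. The part of the monocyte, basophil and mast cell transcripts in the class difference was not tested. FANK1 had no UMI in any monocyte-gated, basophil and mast-gated or B-gated cell of the 4 libraries, and CTLA4 had none in the first 2 of these gates.

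IL2RA and PTGIR were also read outside T cells. In basophil and mast-gated cells IL2RA stood at 170, 90.8 and 119 CPM in naïve, sham and SCI blood, and in monocyte-gated cells PTGIR stood at 46.2, 37.6 and 22.6 CPM. No FOXP3 UMI was found in either gate.

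The spread of the members into FOXP3- T cells differed by gene. For these shares the FOXP3+ and FOXP3- classes were those of full depth. After thinning to 1000 UMIs, IL2RA had a UMI in 13.2%, 15.1% and 12% of FOXP3+ cells of naïve, sham and SCI blood, in 3.86%, 3.14% and 2.54% of CD4-gated FOXP3- cells and in 0.11%, 0.233% and 0% of CD8-gated FOXP3- cells. The CD8-gated shares lay at or below those of B cells (0.59%, 1.21% and 0.44%), which may themselves express IL2RA. CTLA4, PTGIR, IKZF4, FANK1, ADAM12 and ETV7 followed the same order of FOXP3+, CD4-gated FOXP3- and CD8-gated FOXP3- cells in all 3 blood libraries. For IKZF4 and ADAM12 the step between the 2 gates rested on few cells. In naïve blood it was 6 of 1089 against 2 of 909 for IKZF4 and 7 of 1089 against 2 of 909 for ADAM12. The intervals of both pairs overlapped.

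IKZF2 did not follow that order. It had a UMI in 24.8%, 26.0% and 26.2% of FOXP3+ cells, in 10.7%, 10.3% and 8.64% of CD4-gated FOXP3- cells and in 11.2%, 11.2% and 9.75% of CD8-gated FOXP3- cells of naïve, sham and SCI blood. Its share in B cells was 1.85%, 1.9% and 2.86%. Unlike IL2RA, IKZF2 was thus as frequent in CD8-gated as in CD4-gated FOXP3- cells, within overlapping intervals, and well above B cells in both. At full depth the level of IKZF2 was 187, 193 and 147 CPM in CD8-gated FOXP3- cells and 144, 144 and 117 CPM in CD4-gated ones.

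**Figure D3:**
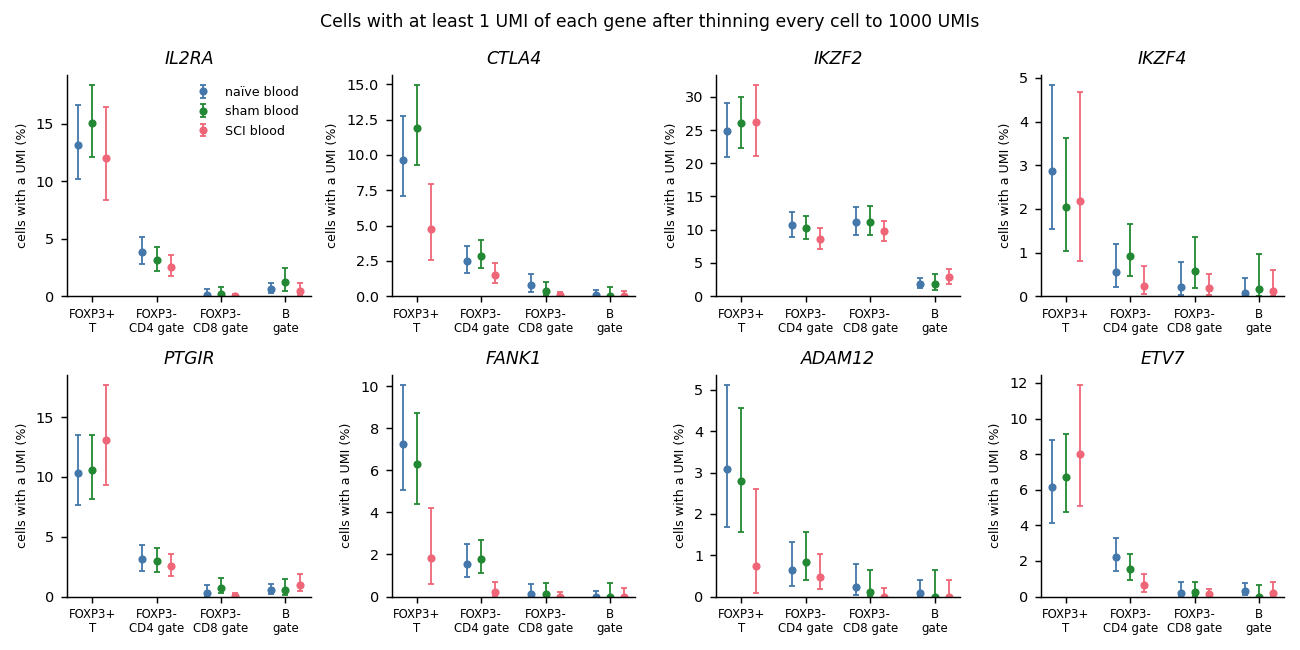
Share of cells (percent) with at least 1 UMI of each of the 8 genes after every cell was thinned to 1000 UMIs, in FOXP3+ T cells, CD4-gated and CD8-gated FOXP3- T cells and B-gated cells of the 3 blood libraries, with exact 95% binomial intervals. The FOXP3 classes are those of full depth. IKZF2 lies between 8.64% and 11.2% in both FOXP3- gates, while no other gene exceeds 0.77% in the CD8 gate.

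FOXP3+ cells carried more of the members' UMIs than their number or their total RNA alone gives. The FOXP3+ cells, 9.53%, 13.2% and 5.35% of the T cells, carried 44.4%, 51.6% and 38.4% of the CTLA4 UMIs of naïve, sham and SCI blood, 38.0%, 52.5% and 38.9% of the IL2RA UMIs, and 40.3%, 45.0% and 40.0% of the FANK1 UMIs. For IKZF2 the share was 19.6%, 27.2% and 15.1%, and over all genes it was 10.3%, 15.1% and 6.5%. Apart from IL2RA and CTLA4 in sham blood, FOXP3- cells held the larger part of each of the 8 genes' UMIs in the 3 blood libraries.

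Among FOXP3- cells, IL2RA and PTGIR were higher in the CD4 gate than in cells with a UMI of GZMK in all 3 blood libraries. IL2RA stood at 8.41, 6.46 and 5.88 CPM in GZMK+ FOXP3- cells of naïve, sham and SCI blood, against 51.8, 36.6 and 24.97 CPM in the CD4 gate. PTGIR stood at 9.66, 10.8 and 11.2 CPM, against 41.4, 31.5 and 28.7 CPM. CD40LG+ FOXP3- cells, a helper-type gate, had CTLA4 at 8.07, 11.2 and 9.01 CPM, below the 30.04, 27.5 and 15.3 CPM of the CD4 gate. FOXP3- cells with 2 or more UMIs of PDCD1 and CD200 had CTLA4 at 22.9, 37.1 and 24.6 CPM. These gates overlap and share cells.

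FOXP3 detection followed the number of other members found in the same T cell. With none of the 8 others detected, 1.92%, 1.66% and 0.616% of T cells of naïve, sham and SCI blood had a FOXP3 UMI. With 1 other member the shares were 7.88%, 6.89% and 3.53%, and with 2 they were 24.2%, 25.7% and 21.8%. With 5 or more, they reached 62.1%, 62.1% and 57.9%, of 58, 87 and 19 cells. Depth was not held constant in these shares. After thinning, the shares were 2.39%, 2.07% and 0.832% with no other member, and 13.4%, 12.8% and 17.6% with 2.

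**Figure D4:**
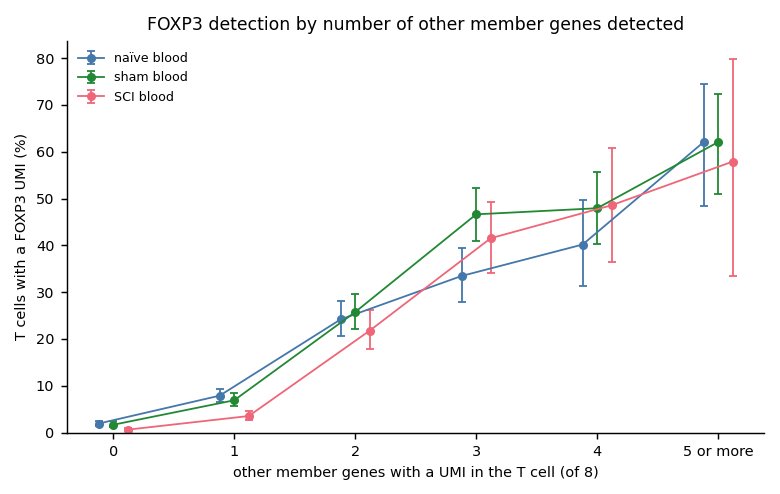
Share of T cells with a FOXP3 UMI (percent) by the number of the other 8 genes with a UMI in the same cell at full depth, in the 3 blood libraries, with exact 95% binomial intervals. The share climbs from at most 1.92% with none to 57.9% or more with 5 or more.

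Viewed from FOXP3+ cells at full depth, 10.1%, 5.0% and 6.55% of them in naïve, sham and SCI blood showed none of the other members, and 37.6%, 51.9% and 42.2% showed 3 or more. In FOXP3- cells 3 or more were found in 6.2%, 8.07% and 2.96%. CD8-gated FOXP3- cells with 3 or more numbered 11 of 913, 14 of 857 and 4 of 1695. Such combinations were thus read in a smaller share of CD8-gated than of all FOXP3- cells, which include the CD8-gated ones. This difference was not tested. After thinning, 1 of 909, 0 of 857 and 0 of 1692 CD8-gated FOXP3- cells of naïve, sham and SCI blood held 3 or more. Among all FOXP3- cells 27 of 4298, 19 of 3550 and 5 of 4847 did.

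In pairs, detection was only weakly linked in these sparse counts, and the phi coefficients are given as a description across cells of 1 library each. For FOXP3 with CTLA4 phi was 0.11, 0.18 and 0.03 in naïve, sham and SCI blood, with 20, 31 and 3 cells that held both after thinning. For FOXP3 with PTGIR it was 0.08, 0.04 and 0.16, with 18, 12 and 19 such cells. Genes were ranked by the mean phi over the 3 blood libraries, and those under a detection minimum of 1% were left out. Among the 7189 genes ranked for FOXP3, the most like it were TNFRSF18 (0.14), TNFRSF4 (0.12) and TNFRSF1B (0.12). TNFRSF18 also came first for IL2RA, PTGIR and FANK1, TIGIT for CTLA4, RTKN2 for IKZF2, TNFRSF4 for IKZF4, HPGD for ADAM12 and FOXP3 itself for ETV7.

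Over all T cells, which mixes the number of Treg cells with the level per cell, 6 of the 9 members were at least 1.5-fold lower in SCI than in naïve blood, where 7.04% of 13829 genes were. Against sham blood 7 of the 9 were, beside 6.17% of 13985 genes. Between sham and naïve blood none of the 9 passed that fold, which 9.72% of genes passed in either direction. SCI blood is shared by the first 2 comparisons. The median log2 ratio of the members was -1.03 against naïve and -1.12 against sham blood, and that of all genes was 0.00 and 0.01.

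FOXP3 stood at 43.7, 53.9 and 20.4 CPM in the same order of libraries, a log2 ratio of SCI to naïve of -1.09 (interval -1.28 to -0.91). IL2RA stood at 57.6, 62.9 and 28.9 CPM, and CTLA4 at 36.9, 44.1 and 16.3 CPM. FANK1 had the largest gap of the 9, at 22.9 CPM (347 UMIs), 22.2 CPM (402 UMIs) and 6.04 CPM (115 UMIs), which made it 3.77-fold lower in SCI than in naïve blood (log2 -1.92). In thinned cells the FANK1 ratio was -2.90 on 12 and 92 UMIs, and FANK1 had a UMI in 1.85% of thinned T cells of naïve and 0.215% of SCI blood. For each of these 4 genes naïve and sham blood lay within 1.5-fold of each other and SCI blood lay apart.

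ETV7 stood at 26.97, 26.6 and 12.1 CPM and ADAM12 at 11.3, 9.04 and 5.52 CPM in naïve, sham and SCI blood, again lowest in SCI. IKZF2 (180, 198 and 147 CPM), PTGIR (42.9, 45.0 and 34.8 CPM) and IKZF4 (9.50, 11.5 and 7.62 CPM) were also lowest in SCI blood but by smaller ratios, -0.29, -0.30 and -0.32 against naïve. IKZF4 was just past the fold against sham (-0.59, interval -0.91 to -0.28), and lay between -0.69 and -0.53 under other filters and scalings of CPM. Of the 28 other Treg-linked genes, 26 had enough counts, of which 12 were at least 1.5-fold lower against naïve and 13 against sham blood. Over all genes the shares were 7.04% and 6.17%.

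The CD8-gated share of FOXP3- T cells moved with these values, from 21.0% and 24.1% in naïve and sham blood to 34.9% in SCI blood. Within the CD4 gate alone, a comparison added after seeing the data, the log2 ratios of SCI to naïve blood were -0.91 for FOXP3, -0.97 for IL2RA, -1.17 for CTLA4 and -1.80 for FANK1. Against sham blood they were nearer to 0 than over all T cells, at -1.05 for FOXP3, -0.94 for IL2RA, -1.09 for CTLA4, -1.35 for FANK1 and -0.77 for ETV7, and ADAM12 (-0.54) no longer passed 1.5-fold. IKZF4 went the other way, to -0.67. The monocyte markers also moved with SCI blood, at 1121, 1043 and 167 CPM in the T cells of naïve, sham and SCI blood, led by S100A9. Monocyte-gated cells held no UMI of FOXP3, CTLA4, FANK1 or ADAM12 in any library. They held IL2RA at 6.59 CPM and ETV7 at 11.5 CPM in naïve blood and at 5.64 and 7.52 CPM in sham blood, below the T cell levels, and the part of monocyte RNA in the T cell values of these genes was not tested.

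Within the FOXP3+ cells, taken from 1 FOXP3 UMI, fewer members passed the fold than over all T cells, and this difference was not tested. CTLA4 was lower in SCI (96.3 CPM, 119 UMIs) than in naïve (159 CPM, 248 UMIs) and sham blood (151 CPM, 413 UMIs), with log2 ratios of -0.72 (interval -1.05 to -0.40) and -0.64 (-0.95 to -0.35). FANK1 was lower by -1.26 (-1.78 to -0.78) and -0.82 (-1.33 to -0.35). With ADAM12 (-0.86 against naïve), these made 3 of 8 members lower against naïve blood, where 7.15% of genes were, and 2 of 8 against sham blood, where 7.06% were. IL2RA (-0.30 and -0.33), ETV7 (-0.44 and -0.47), IKZF2 (0.00 and -0.06) and IKZF4 (-0.04 and -0.18) stayed within 1.5-fold. PTGIR was highest in SCI blood (0.31 and 0.30), with intervals that just left 0 out.

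A minimum of 2 FOXP3 UMIs per cell gave another picture for FANK1 against sham blood, with a log2 ratio of 0.014 on 22 UMIs in SCI and 88 in sham blood, and -0.38 for CTLA4, so that neither was past 1.5-fold. PTGIR was past it upwards there, at 0.80 against naïve and 0.77 against sham blood, on 53 UMIs in SCI blood. Among cells with a lone FOXP3 UMI, FANK1 stood at 77.4, 66.0 and 26.6 CPM in naïve, sham and SCI blood, and among those with 3 or more at 167, 69.1 and 77.5 CPM. CTLA4 was higher at 3 or more FOXP3 UMIs, at 399, 214 and 202 CPM, than at 1, at 109, 127 and 82.1 CPM, in each of the 3 libraries, whereas IKZF2 showed no order common to the 3.

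Within the FOXP3- cells, IL2RA (-1.07), CTLA4 (-1.09), FANK1 (-1.97), ADAM12 (-0.88) and ETV7 (-1.23) were at least 1.5-fold lower in SCI than in naïve blood, 5 of 8 members beside 7.05% of genes. Against sham blood 4 of 8 were, all of these but ADAM12 (-0.44), beside 5.85% of genes. Lower member levels in SCI blood were thus also read outside the cells with a FOXP3 UMI. In CD4-gated FOXP3- cells IL2RA was lower against naïve blood by -1.05 and against sham blood by -0.55, and FANK1 by -1.95 and -1.35. Against sham blood IL2RA and ETV7 (-0.57) were then under 1.5-fold, which left CTLA4 (-0.84) and FANK1 past it. The difference between the classes in these ratios was not tested.

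**Figure D5:**
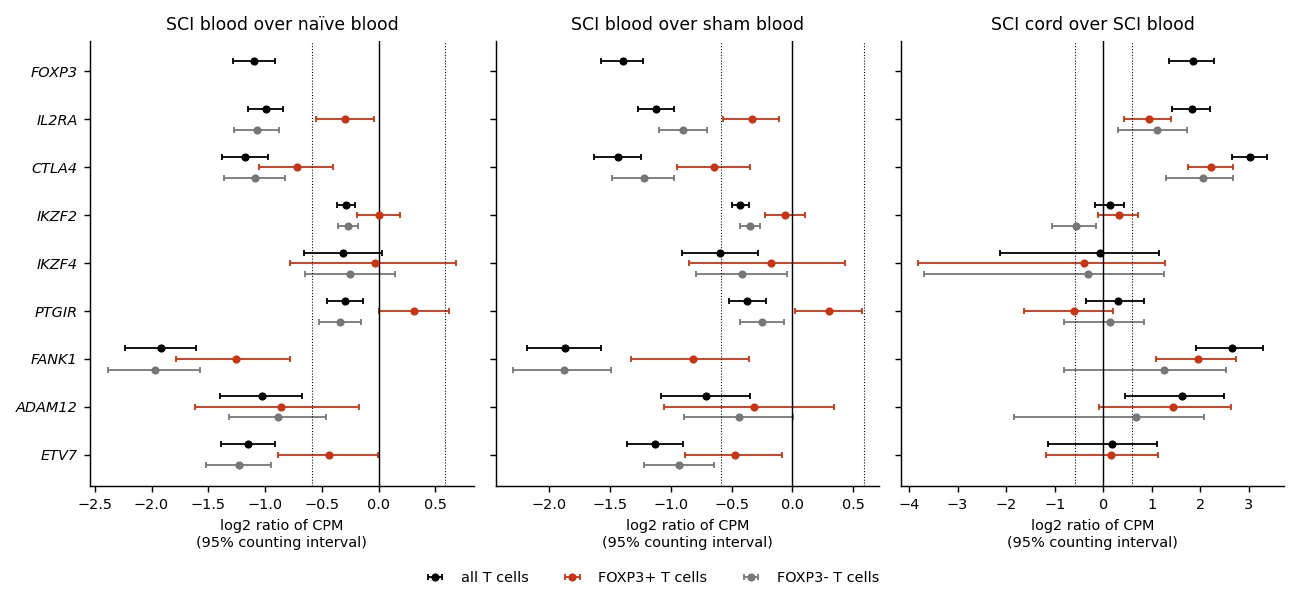
Log2 ratio of CPM between libraries for each gene over all T cells (black), FOXP3+ T cells (red) and FOXP3- T cells (grey), with 95% counting intervals from 1 library per condition. Dotted lines mark 1.5-fold, FOXP3 is drawn over all T cells only, and genes with under 20 UMIs over both libraries or none in one of them are left out. FANK1 lies furthest to the left over all T cells in both blood panels, and CTLA4 furthest to the right in the cord panel.

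In the SCI cord, 15 FOXP3+ and 67 FOXP3- T cells were available. Over all 82 T cells, FOXP3 stood at 73.1 CPM (45 UMIs), IL2RA at 102 CPM (63 UMIs), CTLA4 at 132 CPM (81 UMIs) and FANK1 at 37.4 CPM (23 UMIs), against 20.4, 28.9, 16.3 and 6.04 CPM in SCI blood. With ADAM12 at 16.2 CPM on 10 UMIs, 5 of 9 members were at least 1.5-fold higher in cord than in SCI blood. That fold was passed upwards by 22.6% of genes in this comparison, which rests on few cells. IKZF2 (0.15), IKZF4 (-0.07), PTGIR (0.30) and ETV7 (0.18) stayed within the fold on the log2 scale.

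Within FOXP3+ cells CTLA4 stood at 449 CPM in the cord (60 UMIs in 12 of 15 cells, interval 342 to 577) against 96.3 CPM in SCI blood, a log2 ratio of 2.23 (1.75 to 2.68). Of those 60 UMIs, 18 were in a lone cell, and without those UMIs the ratio was 1.72. FANK1 stood at 142 CPM (19 UMIs in 6 cells) against 37.2 CPM (1.95, and 1.62 without the UMIs of its top cell), and IL2RA at 329 CPM (44 UMIs in 10 cells) against 173 CPM (0.94, and 0.61 without the UMIs of its top cell). With ADAM12 at 52.3 CPM on 7 UMIs (1.44, interval -0.08 to 2.62, and 1.00 without the UMIs of its top cell), 4 of 8 members were higher beside 22.3% of genes. PTGIR was lower past that fold, at 89.7 CPM on 12 UMIs against 141 CPM, with an interval of the ratio that spans 0 (-0.59, and -1.33 without the UMIs of its top cell). Over all genes of this comparison, 19.7% were lower past the fold. Cord FOXP3- cells were also above those of SCI blood for CTLA4, at 43.6 against 10.7 CPM (log2 2.05, interval 1.30 to 2.67, and 1.38 without the UMIs of its top cell), and for IL2RA, at 39.4 against 18.9 CPM (1.10, 0.31 to 1.73, and 0.57 without the UMIs of its top cell). In these cells 4 of 8 members were at least 1.5-fold higher beside 22.8% of genes. The 4 included FANK1 on 4 cord UMIs (1.26, interval -0.82 to 2.52) and ADAM12 on 3 (0.68, -1.84 to 2.07). Without the UMIs of their top cells these stood at 0.41 and 0.20, so that of the 4 only CTLA4 stayed past 1.5-fold. ETV7 counted as lower past that fold, beside 16.2% of genes, with 0.5 added to its 0 cord UMIs. Against a floor of 3 cord UMIs, SCI blood was 1.45-fold higher, which is short of 1.5-fold. IKZF2 was also lower (-0.57, interval -1.05 to -0.15), though within the fold. Among CD4-gated FOXP3- cells CTLA4 was at 0.40 on 4 cord UMIs, under 1.5-fold, and IL2RA at 1.17 on 12 cord UMIs. The CTLA4 level of the cord FOXP3+ cells was above that of all 3 blood libraries, and its interval did not overlap theirs.

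The cord T cells also carried RNA of other cells. Their 6 basophil and mast cell markers summed to 3103 CPM in FOXP3+ cells and 1629 CPM in FOXP3- cells, led by CLC, with none at 0, against 31.5 and 84.5 CPM in SCI blood. The 7 monocyte markers summed to 426 and 3076 CPM in the same cord classes. IL2RA stood at 112 CPM in the 19 basophil and mast-gated and 167 CPM in the 9 B-gated cells of the cord, so the part of such RNA in the cord level of IL2RA was not tested. CTLA4, FANK1 and FOXP3 had no UMI in those cells, nor in the 8 monocyte-gated ones.

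In cord FOXP3- cells, ETV7 had no UMI in 67 cells (a floor of 3 UMIs is 6.23 CPM), and FOXP3+ cells held 8 UMIs, 4 of them in a lone cell. The 95% counting interval of the log2 ratio began at 2.62, and it treats those 4 UMIs as separate counts. IKZF2 stood at 426 CPM in FOXP3+ and 89.2 CPM in FOXP3- cord cells, a log2 ratio of 2.25 (1.66 to 2.86), against 1.09, 1.07 and 1.36 in naïve, sham and SCI blood. Of the 14 PTGIR UMIs of cord FOXP3- cells, 13 were in a lone cell. The co-detection of members in the cord rested on the same few cells, of which 12 of the 15 FOXP3+ cells held 3 or more other members at full depth, and 3 of the 67 FOXP3- cells.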

How the data were processed

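The authors deposited UMI counts per gene and barcode, unnormalised, made with CellRanger 3.1.0 against GRCh38 and mm10 together. Each of the 4 libraries was 1 condition, and cells were pooled from different animals, with no record here of which cell came from which animal. The 9 genes and the lists were chosen with earlier results of these data known. T cells had over 50% human UMIs and at least 1 CD3 UMI. No doublets were removed in the main values. Naïve, sham and SCI blood held 34161760, 36007208 and 36487994 UMIs in total, and the cord 4206461.

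Each FOXP3 class was summed within each library and tested with edgeR 4.0.16 (quasi-likelihood, TMM, library term, 12979 genes with at least 10 counts in 3 of the 6 sums, Benjamini-Hochberg), in R 4.3.3. Genes were called at an adjusted p under 0.05 and 2-fold. Ratios between libraries added 0.5 to each count and kept genes of 20 or more counts in the 2 libraries combined, with exact conditional binomial intervals, and past the fold means 1.5-fold. Shares had exact (Clopper-Pearson) 95% intervals, before and after thinning each cell to 1000 UMIs, which left out 42, 7 and 15 T cells of naïve, sham and SCI blood and 3 of the cord. Gates were: CD4 or CD8 as in the text; B, monocyte and basophil and mast cells by fixed markers. Alternatives were DESeq2 1.42.0, other scalings, filters, thinning, doublet removal and left-out libraries. Both computations were tested on simulated counts. Named genes were the 9, the lists, and the 12 highest and 8 lowest called genes with at least 200 UMIs. The 3 genes with the highest mean phi per member, among genes past a detection minimum of 1%, were also named. No human genome or sequence was used here.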

Additional observations from a re-analysis of the deposited data

How the results depend on the processing

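The 8 members stayed called higher in FOXP3+ T cells under DESeq2, without a filter, with library totals, without the library term, from 2 FOXP3 UMIs, in the CD4 gate, with the cord added, under each cell filter and without each blood library, except IKZF4 (1.75) and ADAM12 (1.63) in thinned cells. In the fit of thinned cells the classes were redrawn from the FOXP3 UMIs left. The number of genes called was less stable than the members. The number called higher was 380 in the main values, 84 with thinned cells, and 231 to 347 when a blood library was left out, fewest without sham blood. The number called lower was 526 in the main values, 295 by DESeq2, 142 with thinned cells, 273 in the CD4 gate, and 172 to 224 when a library was left out. How many genes these calls share was not counted, and fewer genes were tested with thinned cells, in the CD4 gate and without a library. Without the library term (no replicate block), which pairs the classes of each library, 343 and 408 genes were called. The pairing follows from both classes being cells of the same library.

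The share of T cells with a FOXP3 UMI was 3.68%, 3.94% and 1.87% in thinned cells of naïve, sham and SCI blood and 6.33% in those of the cord, and 12.4%, 15.6% and 9.2% in the CD4 gate of the 3 blood libraries. Scaled to UMIs per cell, which leaves the greater depth of sham blood and of the cord in the values, 5 members passed 1.5-fold between sham and naïve blood over all T cells (0 in CPM) and 9 between cord and SCI blood (5 in CPM). Within FOXP3+ cells the sham to naïve count went from 0 to 4 per cell, 1 from 2 FOXP3 UMIs and 1 in the CD4 gate, and within FOXP3- cells from 0 to 2 per cell and 2 in the CD4 gate. These counts take both directions together. Within FOXP3+ cells from 2 UMIs, 5 members passed between SCI and naïve blood, 4 of them lower and PTGIR higher (3 in the main values, all lower). Between SCI and sham blood 1 did, PTGIR, which was higher, while neither of the 2 lower members of the main values passed and FANK1 turned to 0.014. In the CD4 gate the SCI to sham count was 1, FANK1, and 3 passed between cord and SCI blood (5 in the main values, 4 higher and PTGIR lower). Within FOXP3- cells 7 passed between SCI and sham blood per cell and 2 in the CD4 gate (4 in the main values). PTGIR in FOXP3+ cells turned to 0.39 per cell between cord and SCI blood, and in FOXP3- cells ETV7 turned to 0.64 with thinned cells and FANK1 to -1.33 in the CD4 gate, the last on 0 cord UMIs. In thinned cells over all T cells, the ratio of SCI to sham blood reached -3.22 for FANK1 and -1.51 for ADAM12. The causes of these shifts were not tested. With 1 library per condition and 15 FOXP3+ cord cells, animals and counting limit every comparison between libraries. In the cord, levels of genes with under 20 UMIs have wide intervals.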
